A study of Mus musculus with 8 samples.

Results

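The autophagy machinery of thioglycollate-elicited mouse peritoneal macrophages was examined with and without cholesterol loading, with *Atg9b* set against the other genes. The members were the probes whose gene symbol was on a list of 32 autophagy genes or was Atg followed by a digit. By symbol, 27 of the 32 listed genes were found, and 9 further *Atg* genes (*Atg2a*, *Atg2b*, *Atg4a*, *Atg4b*, *Atg4c*, *Atg4d*, *Atg10*, *Atg16l1* and *Atg16l2*) came in by the pattern, which gave 36 genes with 70 of the 45281 probes of the array. The other 5 listed genes (*Lamtor1*, *Tfeb*, *Tfe3*, *Vmp1* and *Epg5*), together with *Atg13* and *Atg101*, were on the array under other symbols, as 13 probes for 7 genes. They are described beside the members, and are counted with them only in the role groups, in the promoter search and in the check for outlying arrays. The probe taken for *Atg13* is deposited as *Harbi1*, a name that RefSeq now gives to the neighbouring gene and lists as a synonym of *Atg13*, and was assigned by its RefSeq transcript, which belongs to *Atg13*. *Atg14* was not matched to a probe.

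Macrophages from C57/BL6 mice of 8 weeks were either mock treated (control, 4 arrays) or incubated with 120 μg ml−1 acetylated LDL (Ac-LDL, 4 arrays) for 24 h. Ac-LDL is a chemically modified lipoprotein that macrophages take up through scavenger receptors, so that they fill with cholesterol and take on features of foam cells. Thioglycollate is an irritant that draws cells into the peritoneal cavity, and all 8 samples came from cells elicited in this way. Both groups are numbered as biological replicates 1 to 4. Replicates 1 and 2 of each group lay on 1 bead chip (slide 1) and replicates 3 and 4 on another (slide 2).

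Macroautophagy encloses cytoplasm, organelles or lipid droplets in a double membrane that closes into an autophagosome and fuses with lysosomes. The ULK1 kinase complex starts the process, the class III PI3-kinase complex marks the growing membrane with phosphatidylinositol 3-phosphate, and ATG9, a multispanning membrane protein, travels in small vesicles that seed it. Conjugation enzymes then attach ATG8 proteins (LC3 and GABARAP families) to the membrane, where cargo receptors such as p62 (*Sqstm1*) dock. In macrophages, autophagy of lipid droplets delivers cholesterol esters to lysosomal acid lipase. Mammals have a pair of ATG9 paralogues, *Atg9a*, which is broadly expressed, and *Atg9b*, which has a narrower tissue distribution.

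The probes behind the *Atg9* results were 50 bases long and carried by beads. The first 30 bases of each, from the deposited annotation, are shown because *Atg9b* was read by 1 probe only, so that each of its values rests on this sequence.
Atg9b (ILMN_3160369): gccccactcttggaagctgaggactgcacc
Atg9a (ILMN_2698801): cagaagtgtgacctcagttatatatacatc
Atg9a (ILMN_2699338): gactatgacatcctctttgccaacaagatg
The *Atg9b* probe begins at base 3551 of its transcript, and the *Atg9a* probes at bases 3482 and 446. *Atg9b* lies on mouse chromosome 5, in RefSeq's GRCm38.p6 annotation from 24384181 to 24392143 on the minus strand, where its end shares 294 bases with the end of *Nos3* (24364816 to 24384474). *Nos3*, the endothelial nitric oxide synthase, had 4 probes, of which 3 were detected on no array and 1 on 1 array. Whether the *Atg9b* probe falls into the shared bases was not determined.

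Probe signals were background-corrected and quantile-normalized, and all levels below are log2 normalized signals. Testing required a detection p no higher than 0.05 on 4 or more of the 8 arrays, which left 17122 probes for 12423 gene symbols. Of the 70 member probes, 53 were tested, for 33 of the 36 genes, and 15 were detected on no array. *Rb1cc1* (FIP200, the scaffold of the ULK1 complex), *Pik3r4* (the VPS15 subunit of the PI3-kinase) and *Atg4a* had no tested probe, and neither had *Tfeb*. A gene with several probes is given by its tested probe with the highest mean level. Between 36.8% and 38.5% of all probes were detected per array. The median signal per array was between 42.5 and 46.4, and pairs of arrays had correlations between 0.9783 and 0.9948 over the tested probes.

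The Ac-LDL samples had a lower signal of *Atg9b* and small differences, in both directions, of the other machinery. In the control samples 1 to 4 the level of *Atg9b* was 6.60, 6.61, 7.46 and 7.14. In the Ac-LDL samples 1 to 4 it was 6.01, 5.71, 5.42 and 5.28. All 4 Ac-LDL samples lay below all 4 controls, and the controls of slide 2 lay above those of slide 1. The means were 6.95 ± 0.42 (SD, n = 4) in controls and 5.61 ± 0.32 (SD, n = 4) with Ac-LDL. The difference of -1.34 (SE 0.22, 95% interval -1.83 to -0.86) is 2.54-fold. The deposited linear signals, before any correction, were 133, 110, 212 and 182 in the controls and 81.0, 72.7, 70.6 and 62.4 with Ac-LDL, and they did not overlap either. The probe was detected on all 8 arrays.

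By limma's moderated test with Benjamini-Hochberg adjustment over all 17122 probes, the adjusted p of *Atg9b* was 0.0845, so that it was not called at 0.05. This test called 7 probes in all, 0.0409% of those tested, and 0 of the 53 member probes. When the fit took the slide as a block, *Atg9b* had an adjusted p of 0.0402 and was the single member called, among 55 probes or 0.321% of all. With the replicate number as a block, its adjusted p was 0.0505, and again 0 members were among the 76 probes called, 0.444% of all. Of the 17122 tested probes, 11 were lower by at least as much as *Atg9b*, itself included. An exact two-sided permutation test of this probe gave a p of 0.0286, the smallest that the 70 assignments of 8 arrays allow. The groups did not overlap for 3.80% of all tested probes. As *Atg9b* was chosen with its earlier result in these data known, this unadjusted p is a description.

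**Figure D1:**
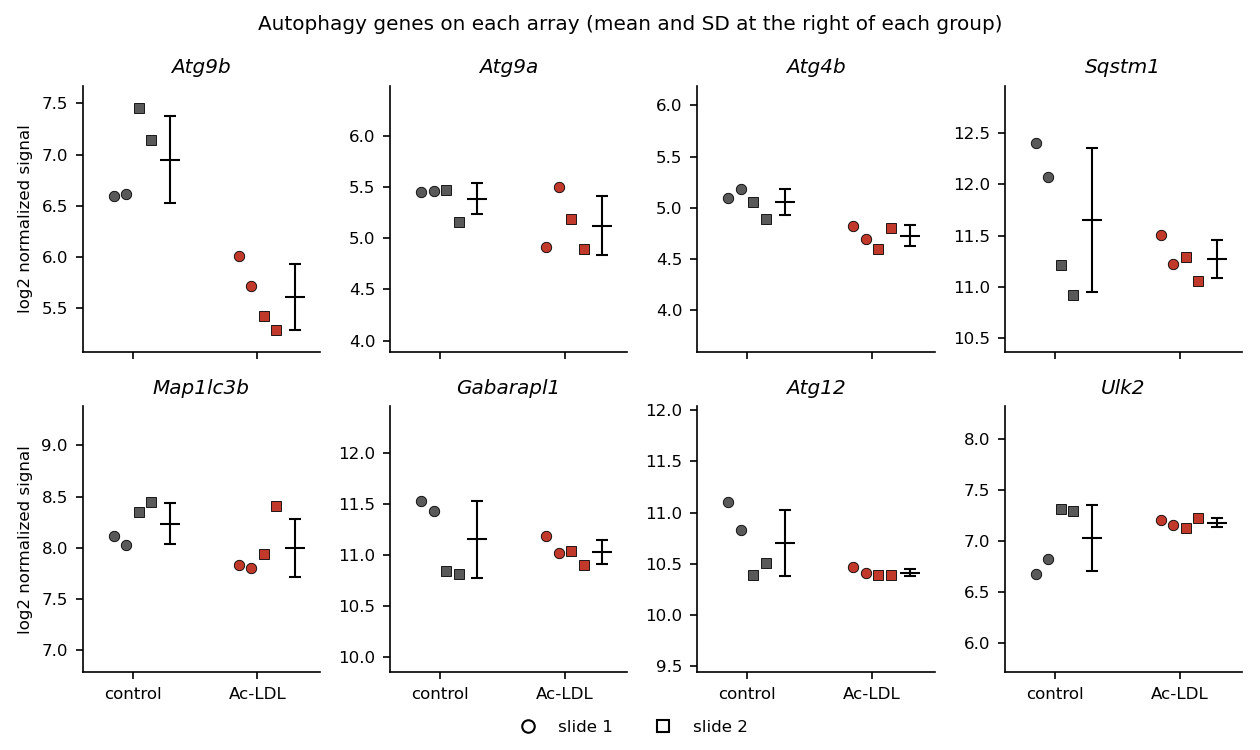
Log2 normalized signal of 8 autophagy genes on each array, with controls in grey, Ac-LDL in red, slide 1 as circles and slide 2 as squares, and the mean and SD (n = 4) at the right of each group. Each panel spans the same log2 range around its own centre. The 4 Ac-LDL samples of *Atg9b* and of *Atg4b* lie below their controls, while *Sqstm1*, *Gabarapl1*, *Atg12* and *Ulk2* differ mainly between the control arrays of the slides.

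The remaining members set the scale for *Atg9b*. Over the 33 tested genes, 12 were higher and 21 lower with Ac-LDL, with a median difference of -0.07, beside a median of 0.00 and 49.6% lower over all tested probes. Without *Atg9b*, the differences of the other 32 genes lay between -0.38 and 0.28. The median size of the difference was 0.12 over the 33 genes and 0.09 over all tested probes. At an unadjusted p under 0.05, 2 of the 33 genes passed (*Atg9b* and *Atg4b*), beside 5.20% of all tested probes. The 4 Ac-LDL samples lay outside the range of the controls for the same 2 genes, both lower, beside 3.80% of all tested probes in either direction. Among the 53 probes there were 3 without overlap, the third being a dim probe of *Rab7* that was higher with Ac-LDL. When arrays were scaled by their medians in place of quantile normalization, 29 of the 33 genes were lower with a median of -0.19, while the median of all tested probes moved to -0.09. The median of the members minus that of all tested probes was -0.07 with quantile normalization and -0.10 with median scaling. With median scaling, the calls over all probes were 1 higher and 25 lower in place of 1 higher and 6 lower.

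**Figure D2:**
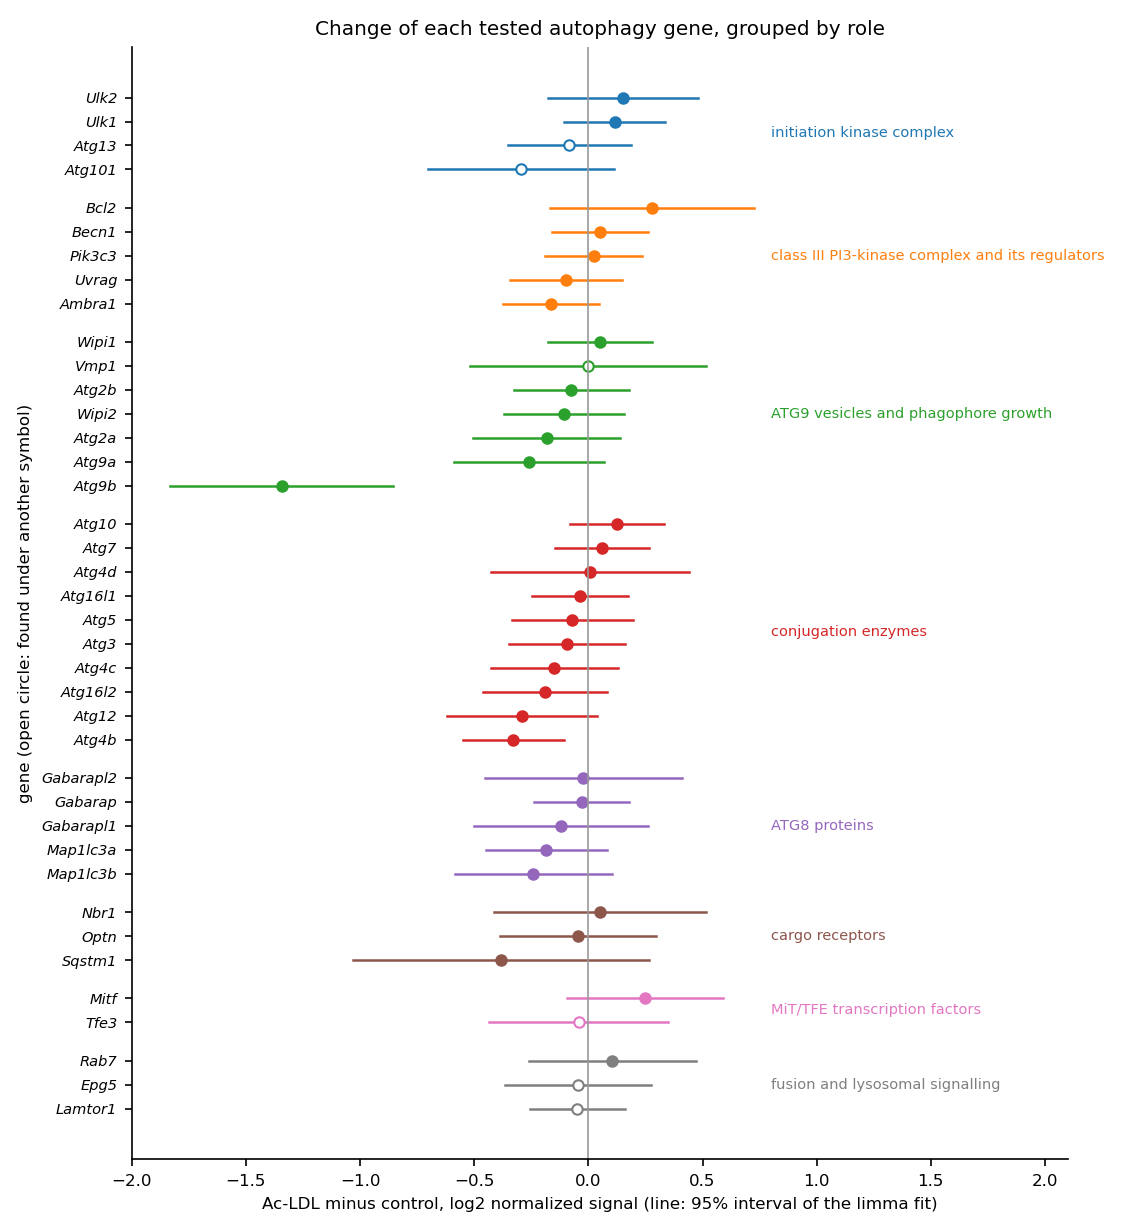
Difference between Ac-LDL and control samples (log2, points) with its 95% interval from the limma fit (lines) for each tested autophagy gene, grouped by role. Filled circles are members found by symbol and open circles genes found under another symbol. *Atg9b* at -1.34 stands apart, and the intervals of all other genes except *Atg4b* include 0.

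*Atg9a* was the nearest comparison for *Atg9b*. Its level was 5.45, 5.46, 5.47 and 5.16 in controls 1 to 4 and 4.91, 5.50, 5.19 and 4.90 in the Ac-LDL samples 1 to 4, and the groups overlapped. Its difference was -0.26 (SE 0.15), with a limma adjusted p of 0.961, and its other probe was detected on no array. The tested probe was dim, with a mean of 5.39 in the controls, beside 4.57 for the probe detected on no array. This left little room to read a fall as large as that of *Atg9b*. To compare the changes of the paralogues, the log2 signal of *Atg9a* was subtracted from that of *Atg9b* on each array. Only the change of this quantity can be read, since levels of different probes are not comparable. It was 1.15, 1.15, 1.98 and 1.98 in the controls and 1.10, 0.21, 0.23 and 0.39 with Ac-LDL, again without overlap, although Ac-LDL sample 1 lay just under the lowest control. The measured change of *Atg9b* exceeded that of *Atg9a* by -1.08 (SE 0.32), and the exact two-sided permutation test gave 0.0286, the smallest p possible. Without any single control array, the p of this test was 0.0571. As *Atg9b* was chosen with its earlier result in these data known, these p-values are descriptions. The part of the low signal of *Atg9a* in the excess was not tested. Paired by replicate number, the exact test that flips the signs of the 4 paired differences and compares their mean cannot go below 0.125, which it gave.

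In the group of ATG9 vesicles and phagophore growth, with both paralogues included, 6 of 7 tested genes were lower and 1 higher, with a median difference of -0.11. *Atg2a* and *Atg2b*, which encode lipid transfer proteins that bridge the endoplasmic reticulum and the phagophore, differed by -0.18 and -0.08. *Wipi1* and *Wipi2*, whose products bind phosphatidylinositol 3-phosphate, differed by 0.05 and -0.11, and the 3 tested probes of *Wipi2* ranged from -0.21 to 0.02. *Vmp1*, an endoplasmic reticulum protein found here as *Tmem49*, had 10.26, 10.35, 10.93 and 10.97 in the controls and 10.39, 10.14, 10.92 and 11.04 with Ac-LDL. Its arrays separated by slide and not by treatment, and its difference was 0.00 (SE 0.23). Its 4 other tested probes were higher with Ac-LDL, by 0.06 to 0.21, and none was called.

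Of the initiation kinase complex, 2 of 4 tested genes were higher and 2 lower. The kinases *Ulk1* and *Ulk2* differed by 0.12 (SE 0.10) and 0.15 (SE 0.15). *Atg13* (from the probe deposited as *Harbi1*) and *Atg101* (found as *9430023L20Rik*), the adaptor subunits, differed by -0.08 (SE 0.12) and -0.29 (SE 0.18). *Ulk2* was 6.68, 6.82, 7.31 and 7.30 in the controls and 7.21, 7.15, 7.13 and 7.22 with Ac-LDL. The Ac-LDL samples lay between the controls of the 2 slides. *Atg101* was 9.69, 9.74, 8.95 and 9.17 in the controls and 9.23, 9.16, 8.82 and 9.15 with Ac-LDL, lower in all 4 pairs but with overlapping groups. None of the 4 was called in any of the 3 fits.

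The class III PI3-kinase complex had 5 tested genes, of which 3 were higher and 2 lower, with a median of 0.02. *Pik3c3*, the catalytic subunit VPS34, was between 8.60 and 8.85 in the controls and between 8.62 and 8.84 with Ac-LDL. *Becn1* (Beclin 1), *Uvrag* and *Ambra1*, its regulators, differed by 0.05, -0.10 and -0.16. *Bcl2*, which binds Beclin 1 and holds it inactive, had the largest positive difference of the members. It was 5.05, 5.02, 5.56 and 5.62 in the controls and 5.36, 5.72, 5.24 and 6.04 with Ac-LDL, a difference of 0.28 (SE 0.20, adjusted p 0.967). The groups overlapped, and the other tested probe of *Bcl2* differed by -0.14.

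Among the conjugation enzymes, 3 of 10 tested genes were higher and 7 lower, with a median of -0.08. *Atg4b* encodes the main protease that trims ATG8 proteins and releases them from membranes. It was 5.10, 5.18, 5.06 and 4.89 in the controls and 4.82, 4.69, 4.60 and 4.80 with Ac-LDL. The groups did not overlap, but the probe was dim, detected on 4 control arrays and on 2 Ac-LDL arrays. The difference was -0.33 (SE 0.10), with a limma p of 0.00799 and an adjusted p of 0.735, and 0.180 and 0.196 with the slide and the replicate block.

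*Atg12*, the ubiquitin-like protein that is joined to ATG5, was 11.10, 10.83, 10.39 and 10.50 in the controls and 10.47, 10.41, 10.39 and 10.39 with Ac-LDL. The 4 Ac-LDL samples sat close together at the level of the slide 2 controls. Its difference was -0.29 (SE 0.15, adjusted p 0.952). *Atg10*, the E2-like enzyme for ATG12, was higher in all 4 pairs, by 0.11 to 0.15, with overlapping groups and an adjusted p of 0.967. *Atg3*, *Atg5*, *Atg7*, *Atg16l1* and *Atg4d* lay within 0.10 of no difference, and *Atg16l2* and *Atg4c* were lower by 0.19 and 0.15 without passing any of the 3 fits.

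All 5 genes for ATG8 proteins had a lower mean with Ac-LDL, with a median of -0.12, and none was called. *Map1lc3b*, which encodes LC3B, the usual marker of autophagosomes, was 8.12, 8.02, 8.35 and 8.45 in the controls and 7.83, 7.80, 7.94 and 8.41 with Ac-LDL. It was lower in each of the 4 pairs, by 0.04 to 0.41, while the groups overlapped, and the difference was -0.24 (SE 0.15, adjusted p 0.961). *Map1lc3a* differed by -0.18, and its dimmer probe by 0.09. *Gabarap* stayed between 12.39 and 12.62 in the controls and between 12.37 and 12.54 with Ac-LDL, a difference of -0.03 (SE 0.09). *Gabarapl1* and *Gabarapl2* differed by -0.12 and -0.02.

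Of the cargo receptors, *Sqstm1* had the largest negative difference of the members after *Atg9b*, at -0.38 (SE 0.29, 95% interval -1.03 to 0.26, adjusted p 0.968). It was 12.41, 12.08, 11.21 and 10.92 in the controls and 11.51, 11.22, 11.29 and 11.06 with Ac-LDL. The controls of slide 1 stood above all other arrays, and the remaining 6 arrays lay between 10.92 and 11.51. *Nbr1* and *Optn*, further receptors for ubiquitin-tagged cargo, differed by 0.05 and -0.04.

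The MiT/TFE transcription factors drive lysosomal and autophagy genes when nutrients or lysosomal function fall. *Mitf* was 4.98, 4.60, 4.91 and 5.29 in the controls and 4.93, 5.25, 5.19 and 5.40 with Ac-LDL, a difference of 0.25 (SE 0.15, adjusted p 0.961) from a dim probe detected on 7 arrays. *Tfe3*, found as *Tcfe3*, differed by -0.04 (SE 0.18), and the probes of *Tfeb* were detected on at most 2 arrays. In the fusion and lysosomal signalling group, the small GTPase gene *Rab7* differed by 0.10 (SE 0.16). *Epg5*, a tether between autophagosome and lysosome, and *Lamtor1*, the lysosomal anchor of mTORC1, differed by -0.05 and -0.05. The dim *Rab7* probe without overlap was 5.02, 4.92, 5.05 and 5.05 in the controls and 5.08, 5.14, 5.27 and 5.15 with Ac-LDL, with an adjusted p of 0.961. By the probe with the highest level, all 6 tested genes under other symbols had a lower mean, with a range from -0.29 to -0.0027 (*Vmp1*, whose other probes were higher), and none was called.

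The change of *Atg9b* and of several members differed between slides. *Atg9b* was lower on both slides, by -0.74 on slide 1 and by -1.95 on slide 2, and its 4 pairs gave -0.59, -0.90, -2.04 and -1.86. *Sqstm1* differed by -0.88 on slide 1 and by 0.11 on slide 2, and *Ulk2* by 0.43 and -0.13. *Gabarapl1*, *Optn* and *Wipi2* were lower by 0.32 to 0.38 on slide 1 and higher by 0.11 to 0.23 on slide 2. *Atg12* differed by -0.53 and -0.06. A treatment-by-slide term, added after the values were seen, had an unadjusted limma p under 0.05 for these 7 of the 33 genes, beside 8.38% of all tested probes, and the term was called for 0 probes of the array after adjustment. For *Atg9b* the slides differed by -1.20 (SE 0.21, p 0.000266, adjusted p 0.266). The median difference of the 33 genes was -0.10 on slide 1 and 0.00 on slide 2. As each slide carried 2 controls and 2 Ac-LDL samples, the slide and whatever separates replicates 1 and 2 from 3 and 4 cannot be told apart.

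**Figure D3:**
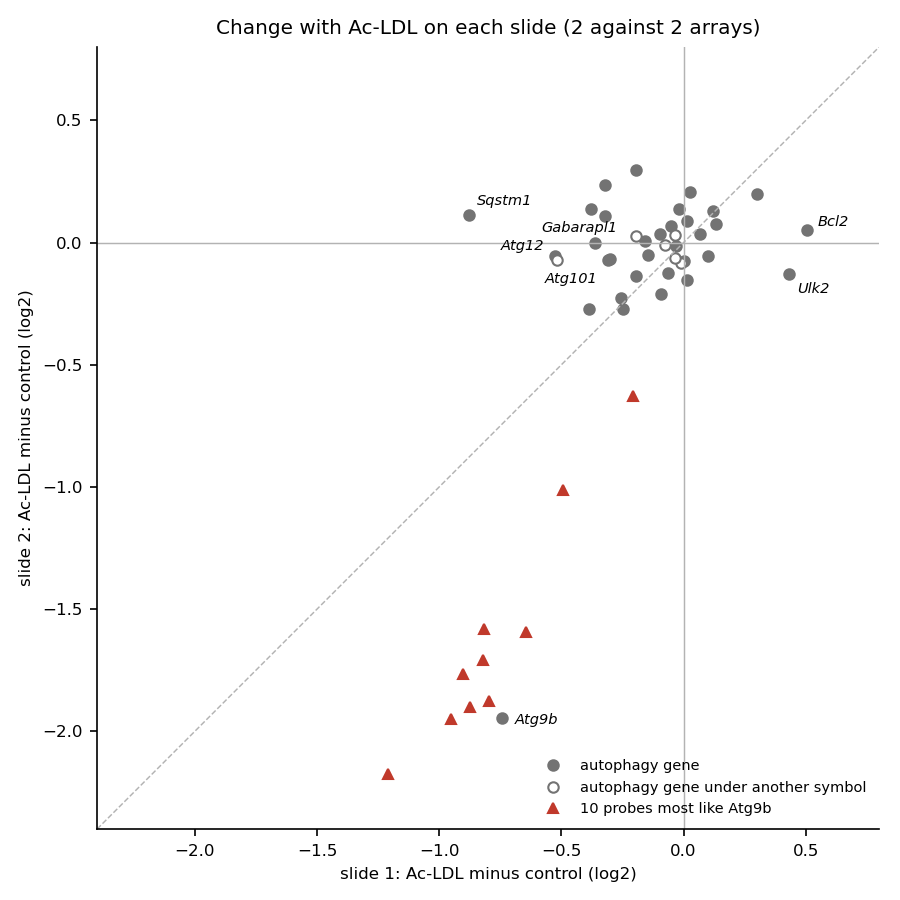
Difference between Ac-LDL and control samples (log2) on slide 1 (horizontal axis) and slide 2 (vertical axis), each from 2 against 2 arrays. Grey filled circles are the member genes, open circles genes under another symbol, red triangles the 10 probes most like *Atg9b*, and the dashed line marks equal change. *Atg9b* lies at -0.74 and -1.95 among the triangles, and the other genes lie around the origin, with *Sqstm1* displaced along slide 1.

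The probes whose pattern over the 8 arrays was most like that of *Atg9b* were sought by Pearson's r among all tested probes. The r is a description over 8 arrays that share treatment and slide. Among the 10 highest were *Stard4* (0.992), *Hsd17b7* (0.991), *Sc4mol* (0.988), *Acsl3* (0.988), *Fdps* (0.982), *Acat2* (0.981), *Lss* (0.980) and *Rdh11* (0.979). Of the 10, 8 were on a list of 25 genes of sterol synthesis and uptake, and the other 2 encode an acyl-CoA synthetase (*Acsl3*) and a retinol dehydrogenase (*Rdh11*). The list was drawn up for this comparison with earlier results of these data known, so the count is a description. It covered 34 of the 17122 tested probes. With the slide means removed, the lowest r of the 10 was 0.982. With the mean of each group removed, an alternative added after the values were seen, the 10 had r between 0.887 and 0.962. As the 10 were picked by r on these same arrays, both sets of values are descriptions and not a separate check.

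*Stard4*, a sterol carrier protein, was 8.95, 8.92, 9.83 and 9.42 in the controls and 8.09, 8.03, 7.83 and 7.61 with Ac-LDL. Its groups did not overlap, and the slide 2 controls were the highest arrays, as for *Atg9b*. *Sc4mol*, a sterol demethylating oxidase, was 10.05, 10.04, 10.98 and 10.64 in the controls and 9.18, 9.01, 9.01 and 8.72 with Ac-LDL, the same order of groups and slides. Among the other members, the highest r was 0.721, for *Atg4b*, the lowest was -0.589, the median over 32 genes was 0.03, and 0 were among the 100 probes most like *Atg9b*.

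**Figure D4:**
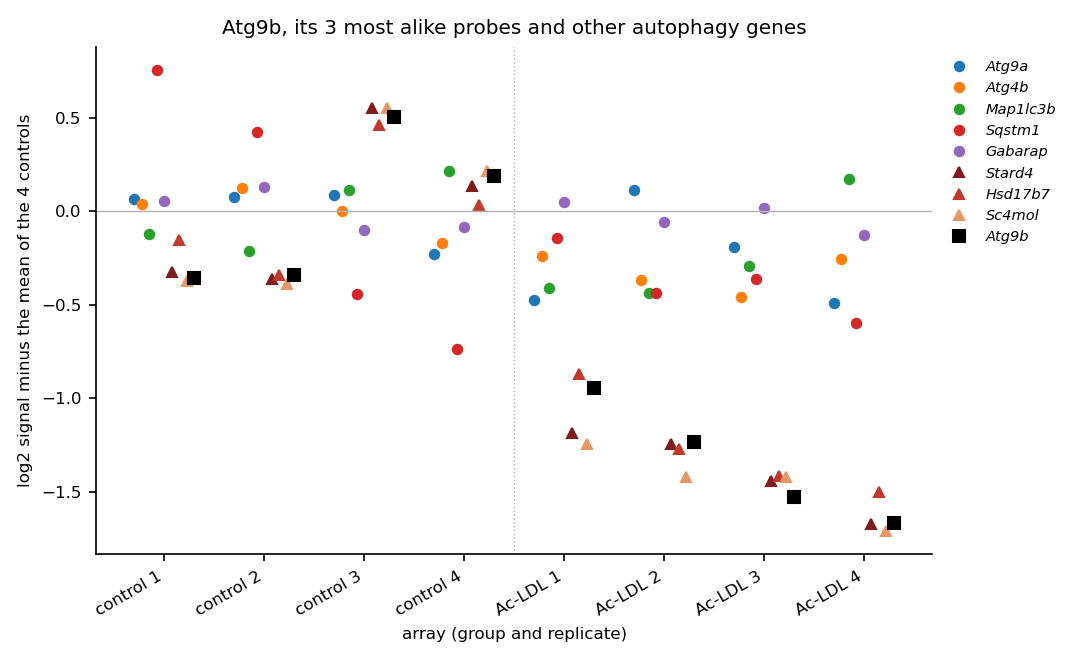
Log2 signal of *Atg9b* (black squares), its 3 most alike probes *Stard4*, *Hsd17b7* and *Sc4mol* (triangles) and 5 other autophagy genes (circles) on each of the 8 arrays, as the deviation from the mean of the 4 controls of the same probe. The squares and triangles lie together below -0.8 on the 4 Ac-LDL arrays, where the circles stay above -0.7.

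Set beside *Atg9b*, the sterol list had 22 tested genes with a median difference of -1.12, every one of the 22 being lower in the Ac-LDL samples. Of these, 3 fell by the test without a block, namely *Fdps*, the farnesyl diphosphate synthase (-1.69, adjusted p 0.0280), *Mvd*, the mevalonate diphosphate decarboxylase (-1.15, adjusted p 0.0342), and *Acat2*, the cytosolic acetoacetyl-CoA thiolase (-1.33, adjusted p 0.0385). With the slide block 13 were called and with the replicate block 14, all lower. The list's median was -0.83 on slide 1 and -1.30 on slide 2, so that its difference, like that of *Atg9b*, was larger on slide 2. The list was drawn up with earlier results of these data known and is given for scale.

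The promoter windows of RefSeq's GRCm38.p6 table, 250 bases before and 50 after each start, were searched on both strands for 4 motifs. These were the E-box CACGTG, the longer CLEAR motif of MiT/TFE factors, which contains the E-box, and a loose (TCACNCCAC) and a strict sterol regulatory element, the motif class of SREBP factors, where each strict match is also a loose match. The *Atg9b* promoter is shown because the pattern of its gene over the arrays was most like that of sterol genes, as the 250 bases before the start at chr5:24392144-24392393, minus strand. The window, with its further 50 bases, held none of the 4 motifs. Of 16 sterol list genes with a window, 1 held the loose sterol element and 0 held the strict one. The lack of these elements therefore does not tell *Atg9b* from the sterol genes.
Atg9b: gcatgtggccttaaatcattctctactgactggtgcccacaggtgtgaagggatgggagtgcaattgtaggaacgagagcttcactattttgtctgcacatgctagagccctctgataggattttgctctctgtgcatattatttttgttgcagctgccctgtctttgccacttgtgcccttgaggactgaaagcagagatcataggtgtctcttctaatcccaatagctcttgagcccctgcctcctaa

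Of the 43 autophagy genes, 36 had a window, with 47 windows together. The E-box was found for 4 of these genes, beside 7.15% of all 32851 windows, which is a share per window and not per gene. The other motifs (0.326%, 1.24% and 0.0913% of all windows) were found for none of them. In the sterol list, 4 of 16 genes with a window held the E-box (*Dhcr7*, *Hsd17b7*, *Insig1* and *Sc5d*). The 4 stretches of 30 bases with the E-box in capitals are shown with a sterol list gene that holds the E-box and is among the probes most like *Atg9b* (*Hsd17b7*), and with the 1 sterol list window that holds the loose sterol element (*Hmgcs1*, element in capitals).
Atg7, chr6:114670952-114670981, plus strand: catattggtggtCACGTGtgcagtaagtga
Lamtor1, chr7:101905757-101905786, plus strand: ctgccttcctatCACGTGccgcgggtccgc
Atg5, chr10:44268313-44268342, plus strand: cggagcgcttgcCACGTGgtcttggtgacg
Atg3, chr16:45158723-45158752, plus strand: gcctccttttgtCACGTGtcctgggagagt
Hsd17b7, chr1:169969331-169969360, minus strand: ggacccttgtgtCACGTGgctccgcccctc
Hmgcs1, chr13:119690204-119690233, plus strand: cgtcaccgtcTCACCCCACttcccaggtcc
The 4 autophagy genes with the E-box differed by 0.06 (*Atg7*), -0.05 (*Lamtor1*), -0.07 (*Atg5*) and -0.09 (*Atg3*), none of them called. A match describes letters and is not evidence of binding, and the lack of a match is not evidence that binding is absent.

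Genes next to *Atg9b* and around the machinery were read from the same fit. Of 9 neighbours of *Atg9b* on its chromosome that were on the array, 7 were tested, 2 higher and 5 lower, between -0.21 and 0.04, and none was called. *Abcb8*, a mitochondrial transporter gene 1537 bases away, had the lowest of these values. The list of mTORC1 and nutrient sensing had 14 of 15 genes tested, 6 higher and 8 lower, between -0.32 and 0.23, with a median of -0.05 and 0 called in any of the 3 fits. Further autophagy factors outside the members had 31 of 34 genes tested, 14 higher and 17 lower, with a median of -0.02 and 0 called.

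In that last list, the groups did not overlap for 2 genes, both lower with Ac-LDL, which are named after their values were seen. *Bnip3l* (NIX), a receptor for mitochondria, was 12.50, 12.48, 12.53 and 12.54 in the controls and 12.41, 12.24, 12.15 and 12.26 with Ac-LDL. *Irgm1*, an interferon-inducible GTPase, was 11.60, 11.49, 11.72 and 11.55 in the controls and 11.43, 11.37, 11.31 and 11.37 with Ac-LDL. Their differences of -0.25 and -0.22 had adjusted p values of 0.841 and 0.887, and the 2 of 31 genes stand beside 3.80% of all tested probes.

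Markers of cell types were read on the same arrays. Of 11 macrophage markers, 10 were detected on all 8 arrays, among them *Cd68*, *Csf1r*, *Itgam* and *Adgre1*, and the probe of *Msr1*, the class A scavenger receptor, was detected on none. Their summed linear level was 67400 to 79510 in controls and 71150 to 78460 with Ac-LDL. Single markers differed by -0.48 (*Cd14*) to 0.61 (*Fcgr1*), and *Mertk*, an efferocytosis receptor, differed by 0.56 and passed in 1 of the 3 fits, that with the replicate block (adjusted p 0.0364). The sum of the fibroblast and mesothelial list, with 7 of 8 genes tested, overlapped as well, at 12640 to 17540 and 13730 to 15650. Of the 7 genes, 1 was without overlap, lower with Ac-LDL, beside 3.80% of all tested probes, and 0 were called in any of the 3 fits. Of the neutrophil list, 4 of 6 genes were detected on no array, and its sum, of which *S100a8* is the 1 tested gene, did not overlap, at 673.8 to 719.5 in controls and 761.8 to 829.7 with Ac-LDL. Sums overlapped for the B cell list (132.3 to 147.9 and 130.3 to 144.1, 4 of 6 genes detected on no array) and the T and NK cell list (358.6 to 475.4 and 344.7 to 441.1, 4 of 8). The sum of the eosinophil and mast cell list, with 7 of 8 genes detected on no array and none tested, did not overlap either. It was 166.4 to 169.9 in controls and 161.1 to 166.1 with Ac-LDL. The part of other cells in the *Atg9b* result was not tested. In a culture measured as a whole, fewer cells of a type and less RNA per cell cannot be told apart.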

How the data were processed

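RNA of 8 macrophage samples was hybridized to Illumina Mouse WG-6 v2.0 bead chips. The authors deposited, for each of 45281 probes, the mean bead intensity on the linear scale, neither background-corrected nor normalized, with a detection p-value against the negative controls of the array and the number and standard error of the beads. The intensities were made with BeadStudio, per the labels. The median number of beads per array was 43 or 44, and 4 arrays per group limit the precision.

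Intensities were processed with limma 3.58.1 in R 4.3.3 by normexp correction from the detection p-values with an offset of 16, quantile normalization and log2 (neqc). Probes with a detection p of at most 0.05 on at least 4 arrays were fitted with a linear model of 2 unpaired groups and empirical Bayes variances, and adjusted by Benjamini-Hochberg over all 17122 probes, with calls at 0.05. The fit was tested on simulated data with independent noise and no slide or replicate effect, which cannot decide between the fits with and without a block. The p-values measure the spread between these samples, which the labels number as biological replicates without naming the animals. By gene identifier, accession, symbol or synonym, 36762 probes were matched to RefSeq's table, and 8 probes of member genes carrying another symbol were not used. Where old and current symbols of 1 gene were both listed, each probe was counted once.

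The members and lists were chosen with earlier results of these data known. Genes named were both *Atg9* paralogues, members called in any fit or without overlap, the 3 largest differences in each direction, the highest level of each role group, genes whose probes differed in sign by over 0.2, the 10 probes most like *Atg9b* and called genes of the lists. Some of those probes are not reported here. Other members are given by their differences, and any gene outside the rule was picked with its values known. Same-numbered samples deviated together (r 0.579, 0.479, 0.468 and 0.629 for replicates 1 to 4, across probes). As they also shared a slide, these r do not show a pairing beyond the slide. The replicate number, given by the labels, was used as a block beside the slide block. Further alternatives were other filters, offset 50, no background correction, median scaling, a trended robust prior, the methods' t-test and leaving out each array. The treatment-by-slide term was added after the data were seen.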

Additional observations from a re-analysis of the deposited data

Results flagged for a closer look

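Among 78 groups of 4 arrays (39 genes, 2 groups each), 3 held an array farther from the rest than the 95% limit of Dixon's test, where chance gives 3.9. *Gabarapl2* was 5.72 in Ac-LDL replicate 4, above 5.02 to 5.10 in the other 3 Ac-LDL samples. *Atg2a* was 7.07 in Ac-LDL replicate 3, below 7.27 to 7.30 in the others. *Atg9a* was 5.16 in control replicate 4, below 5.45 to 5.47 in the other controls, and this array enters the comparison of *Atg9b* with *Atg9a*, whose difference without it was -0.944 in place of -1.084.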

How the results depend on the processing

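*Atg9b* was lower with Ac-LDL under every alternative run, and passed the threshold with the slide block (-1.344, adjusted p 0.0402) and with median scaling (-1.427, adjusted p 0.0240), each of which raised the number of called member probes from 0 to 1. With the replicate block it was at -1.344 and 0.0505, and the block changed no call of the other 15 named autophagy genes, while *Stard4*, *Hsd17b7*, *Sc4mol*, *Acsl3* and *Lss* among the probes most like *Atg9b*, at adjusted p 0.0577 to 0.0732 without a block, were called with it (0.0201 to 0.0445). Without 1 array it was between -1.48 and -1.17 (adjusted p 0.0950 to 0.310), and over all alternatives the adjusted p was between 0.0240 and 0.481. The excess of *Atg9b* over *Atg9a* (-1.084) lay between -1.29 and -0.944 without 1 array, with an exact p of 0.0286 to 0.0571, and had 0.125 paired by replicate block. It could not be computed under the stricter filter, where *Atg9a* was not tested. The median of the tested members was -0.190 with median scaling and between -0.108 and -0.0165 without 1 array. The number of called probes of the array, 7 without a block, was 55 with the slide block, 76 with the replicate block, 14 without background correction, 26 with median scaling and 0 without a filter. It was 16 with the trended robust prior and 0 to 15 without 1 array. The methods' t-test called 0 after Benjamini-Hochberg adjustment, which the methods do not name. Unadjusted, that t-test had a p under 0.05 for 1039 probes. With the fold limits of the study's heat map as well, 28 probes were higher and 25 lower. Among the lower ones was 1 member probe, that of *Atg9b*. Of 251 values of the other 15 named genes, 238 kept direction and side, and 13 in 5 genes reversed, at values between -0.103 and 0.159. With median scaling, *Pik3c3* was at -0.103 and *Rab7* at -0.0276. Without 1 array, *Gabarap* lay between -0.0629 and 0.0134, *Pik3c3* between -0.0178 and 0.0651, *Tfe3* between -0.150 and 0.107 and *Vmp1* between -0.140 and 0.159. The cause was not tested. Signal over background limits the dim probes, such as that of *Atg4b*, detected on 6 arrays, and with an offset of 50 the difference of *Atg9b* was -0.932.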
